A study of Macaca mulatta with 2 samples.

Results

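Voltage-gated sodium and calcium channels were followed across 2 RNA-seq libraries of macaque optic nerve. The members were all listed genes whose symbols name a numbered sodium channel alpha or beta subunit (*SCN*) or a voltage-gated calcium channel pore, alpha2delta, beta or gamma subunit (*CACN*), which gave 39 of the 16684 genes, 13 for sodium channels and 26 for calcium channels. Both libraries came from wild-type, untreated *Macaca mulatta*, so the study has 1 condition and no groups to compare. The methods describe nerves of a 12-year-old male, taken after death and donated as spare tissue, whereas the series record speaks of nerves of 2 macaques, so the spread between the libraries may lie within an animal or between animals. Levels are in TPM, a share of all length-corrected reads of a library scaled to 1000000, and the columns are called Rep1 and Rep2. The read totals are not in the table. The ratios of the values showed that 1 read in Rep1 was worth as much TPM as 17.2 reads in Rep2. Rep1 was thus far shallower in this sense, and a given level of a gene rested on fewer reads there than in Rep2. Optic nerve markers were present in both libraries, with all 8 oligodendrocyte and all 8 astrocyte markers above 0 in each. Every oligodendrocyte marker was lower in Rep1, as were 75.9% of all genes above 0 in at least 1 library. The 10 photoreceptor markers summed to 3324 TPM in Rep1 and 30.9 in Rep2. Most of the Rep1 sum came from *GNAT1*, at 2763 TPM in Rep1 and 1.56 in Rep2. Of the 10 markers, 7 were higher in Rep1, against 24.1% of all genes above 0 in at least 1 library. The list did not move as a whole, but the 3 markers higher in Rep2 were low in Rep1. *ROM1* was at 1.68 TPM in Rep1, on at least 1 read, and at 20.5 in Rep2. *SAG* was at 1.74 TPM in Rep1 and 1.82 in Rep2, and *ARR3* at 0 and 0.187 TPM.

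Sodium channels open on depolarization and carry the rising phase of the action potential, and in myelinated axons they are concentrated at the nodes of Ranvier. Each has a large alpha subunit that forms the pore, with small beta subunits that adjust its gating and act as adhesion molecules. Calcium channels are built likewise around a pore-forming alpha1 subunit, which an intracellular beta subunit and an extracellular alpha2delta subunit help to bring to the membrane. The optic nerve holds axons and glia but not the cell bodies of the retinal ganglion cells, where most neuronal messenger RNA resides. In a bulk sample fewer cells of a type and less RNA per cell cannot be told apart.

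Several sodium channel alpha subunits are close paralogs, and *SCN1A*, *SCN3A*, *SCN7A* and *SCN9A* lie near each other on the minus strand of chromosome 12 of Mmul_10. A read that falls in a stretch shared without any difference by several genes cannot be given to a single gene, so the annotated RefSeq transcripts were searched for such stretches of 50 bases. Of the 39 genes, 25 shared none with the transcripts of any other gene. *SCN3A* shared 3.82% of its stretches, *SCN1A* 2.51% and *SCN9A* 1.46%, while *SCN7A* and *SCN8A* shared none. The exception was *CACNG4*, of whose stretches 53.4% also occur in an uncharacterized gene that overlaps it on the same strand, so its level is uncertain to that extent. Another gene covers an exon of 7 members on the opposite strand, *SCN9A*, *CACNB2* and *CACNA1G* among them, and the use of strand in the counting is not given in the sources used here.

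Of the 39 channel genes, 12 (30.8%) reached 1 TPM or more in both libraries, against 53.9% of all listed genes. The single libraries gave 19 genes in Rep1 and 15 in Rep2. A level of 10 TPM or more in both libraries was reached by 3 members (7.69%), *CACNA2D1* and *CACNB3* among them, against 27.0% of all genes. The median member above 0 had a mean level of 1.17 TPM, and the median gene 9.55 TPM. Thus most of these genes stood in the lower part of the range. Listing at 0 was about as common as elsewhere, with 14 members (35.9%) at 0 in Rep1 against 38.5% of all genes and 5 (12.8%) at 0 in Rep2 against 12.5%. At 0 in both were 4 members (10.3%), against 11.9% of all genes. For the 24 members above 0 in both libraries, only lower bounds of the reads could be given, and the true numbers may be larger. The smallest whole reads that fit their values, which are lower bounds, reached 10 in Rep1 for 10 of them and in Rep2 for 18, and stood at 3 or fewer in Rep1 for 8.

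**Figure D1:**
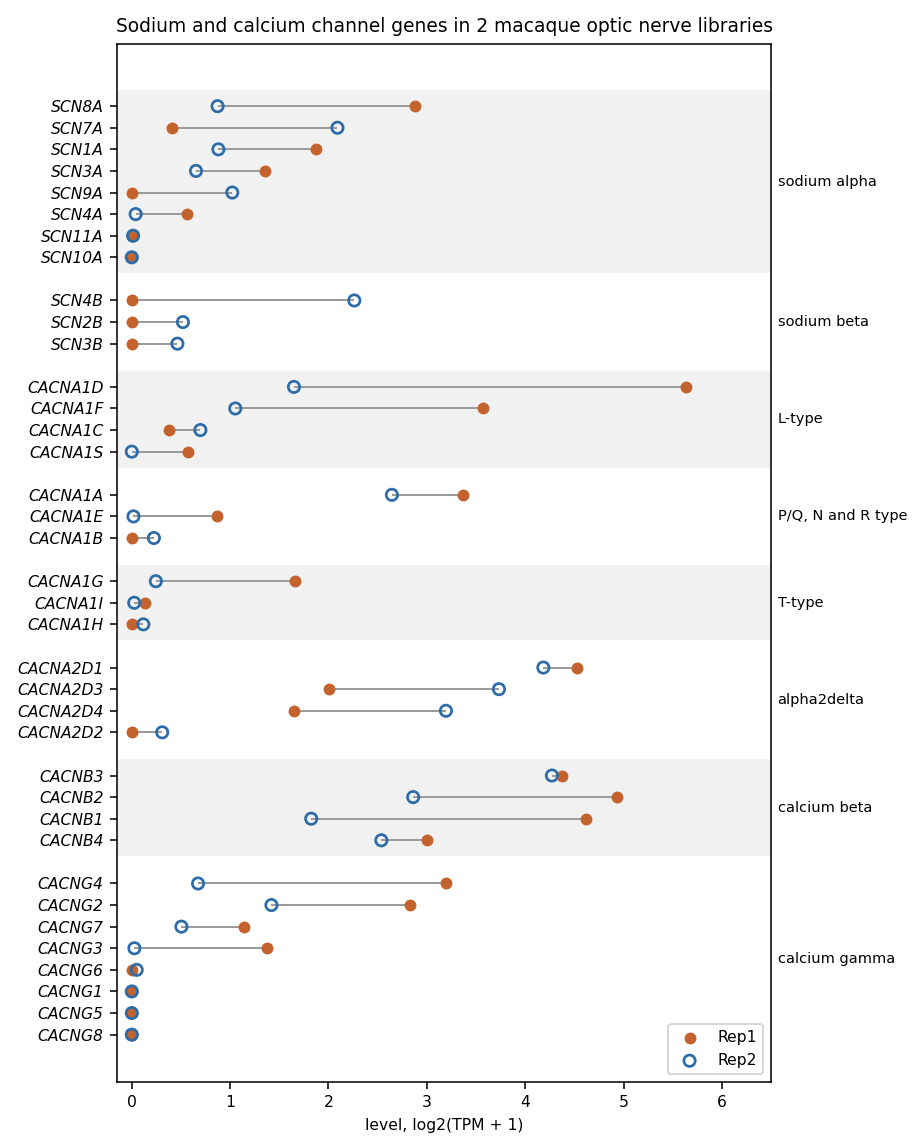
Level of 37 channel genes on the log2(TPM + 1) axis, grouped by subunit class, with filled points for Rep1 and open circles for Rep2 joined by a line. *CACNA1D* in Rep1 is the highest point at 48.6 TPM and stands at 2.14 TPM in Rep2, and 4 genes sit at 0 in both libraries.

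The listed pore-forming sodium channel genes were low, with a summed level of 11.4 TPM in Rep1 and 6.59 in Rep2 for the 9. None of them reached 1 TPM in both libraries. No member carried the symbol *SCN2A*, a further sodium channel alpha subunit, so the sum and the shares below do not cover it. *SCN8A*, the main pore of mature nodes of Ranvier, was at 6.38 TPM in Rep1 and 0.830 in Rep2, on at least 21 and 47 reads. It took 56.0% of the alpha subunit total in Rep1. In Rep2 the largest share, 49.5%, belonged to *SCN7A*, which encodes an atypical channel that responds to the extracellular sodium level rather than to voltage. *SCN7A* was at 3.26 TPM in Rep2 on at least 170 reads and at 0.330 TPM in Rep1 on at least 1. The leading sodium pore among the 9 listed thus differed between the libraries.

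*SCN1A*, a channel of central neurons, was at 2.66 TPM in Rep1 and 0.841 in Rep2, on at least 16 and 87 reads. *SCN3A*, a channel most abundant in the developing brain, was at 1.55 TPM in Rep1 and 0.572 in Rep2, on at least 3 and 19 reads. Both were higher in Rep1, like *SCN8A*. *SCN9A*, known from peripheral sensory neurons, was listed at 0 in Rep1 and at 1.03 TPM in Rep2. Among the 200 genes nearest to it in Rep2 level, 69.5% were also listed at 0 in Rep1, so a 0 in Rep1 was common at this level. The muscle channel *SCN4A* was at 0.471 TPM in Rep1 and 0.0274 in Rep2, which could come from 1 read in each. The sensory neuron channel *SCN11A* was at 0.00940 TPM in Rep2 and at 0 in Rep1, and *SCN10A*, also a channel of sensory neurons, was listed at 0 in both.

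Of the sodium channel beta subunits, *SCN2B*, *SCN3B* and *SCN4B*, membrane proteins with an immunoglobulin fold, were low and were listed at 0 in Rep1. *SCN4B* was at 3.80 TPM in Rep2, a level at which 41.5% of the 200 nearest genes were at 0 in Rep1. *SCN2B* and *SCN3B* were at 0.434 and 0.379 TPM in Rep2, where 76.0% and 74.0% of the nearest genes were at 0 in Rep1. A value of 0 in Rep1 was therefore common at these levels and does not show that the transcripts were absent.

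Among the 10 calcium channel pores, *CACNA1D*, *CACNA1F* and *CACNA1A* reached 1 TPM in both libraries. *CACNA1D*, an L-type pore that opens at fairly negative voltages, was at 48.6 TPM in Rep1 and 2.14 in Rep2, on at least 45 and 34 reads, and its mean was 25.4 ± 32.8 TPM (SD, n = 2). It was the most abundant channel gene of Rep1. *CACNA1F*, the L-type pore of photoreceptor terminals, was at 10.9 TPM in Rep1 and 1.07 in Rep2, on at least 36 and 61 reads. The remaining L-type pores were low in both libraries. *CACNA1S*, the L-type pore of skeletal muscle, was at 0.487 TPM in Rep1 and listed at 0 in Rep2. Among the 200 genes nearest to it in Rep1 level, 4.5% were listed at 0 in Rep2, so a 0 in Rep2 was uncommon at this level. *CACNA1C*, the L-type pore of heart and vascular smooth muscle, was at 0.301 TPM in Rep1 and 0.622 in Rep2. It stood at these levels while all 8 smooth muscle and pericyte markers were above 0 in both libraries and summed to 246.6 TPM in Rep1 and 1307 in Rep2.

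*CACNA1A*, the P/Q-type pore of presynaptic terminals, was the steadiest of the pores above 1 TPM, at 9.29 TPM in Rep1 and 5.25 in Rep2 (mean 7.27 ± 2.86 TPM, SD, n = 2), on at least 7 and 68 reads. It made up 91.9% of the summed level of the P/Q, N and R type pores in Rep1 and 96.7% in Rep2. *CACNA1E*, the R-type pore, was at 0.818 TPM in Rep1 and 0.0119 in Rep2, on at least 4 reads and 1 read. *CACNA1B*, the N-type pore, was at 0.169 TPM in Rep2 and at 0 in Rep1. T-type pores, which open at low voltages, were scarce. *CACNA1G* was at 2.16 TPM in Rep1 and 0.185 in Rep2, on at least 15 and 22 reads, and *CACNA1I* and *CACNA1H* stayed at or below 0.0998 TPM in either library.

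The alpha2delta subunits, which raise the number of channels at the surface, were above 0 in both libraries for 3 of 4 genes. *CACNA2D1*, the binding site of gabapentin, differed by 0.34 between the libraries on the log2(TPM + 1) scale as deposited and by 1.498 after the median of ratios, a scaling that raises Rep1. It was at 22.1 TPM in Rep1 and 17.2 in Rep2, a mean of 19.6 ± 3.45 TPM (SD, n = 2), on at least 13 and 174 reads. *CACNA2D3* was at 3.005 TPM in Rep1 and 12.3 in Rep2, on at least 3 and 211 reads. *CACNA2D4*, which photoreceptor synapses use, was at 2.14 TPM in Rep1 and 8.15 in Rep2, on at least 2 and 131 reads. *CACNA2D3* and *CACNA2D4* were thus lower in Rep1, as were 75.9% of all genes above 0 in at least 1 library. *CACNA1F*, the pore with which *CACNA2D4* works in photoreceptors, was higher in Rep1, as were 24.1% of such genes. *CACNA2D2* was at 0.239 TPM in Rep2 and at 0 in Rep1.

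The intracellular beta subunits were the only class with every gene at 1 TPM or more in both libraries. *CACNB3* was at 19.8 TPM in Rep1 and 18.3 in Rep2, a mean of 19.0 ± 1.02 TPM (SD, n = 2), on at least 15 and 239 reads, and *CACNB4* was at 6.997 TPM in Rep1 and 4.81 in Rep2 (mean 5.90 ± 1.55 TPM, SD, n = 2). As deposited, these genes differed by 0.10 and 0.46 on the log2(TPM + 1) scale, and after the median of ratios by 1.26 and 1.55. *CACNB2* was at 29.5 TPM in Rep1 and 6.27 in Rep2, on at least 75 and 274 reads. *CACNB1*, the beta subunit of skeletal muscle that is also made in brain, was at 23.5 TPM in Rep1 and 2.54 in Rep2, on at least 7 and 13 reads. Both were higher in Rep1 by over 2 on the log2(TPM + 1) scale, with differences of 2.07 for *CACNB2* and 2.79 for *CACNB1*. *CACNB3* made up 57.4% of the class in Rep2, whereas *CACNB2* was the largest in Rep1 with 37.0%.

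The gamma subunits fall into muscle subunits and relatives that serve as auxiliary proteins of AMPA-type glutamate receptors. *CACNG2*, the founding member of the receptor-associated kind, was at 6.13 TPM in Rep1 and 1.68 in Rep2, on at least 10 and 47 reads. *CACNG4* was at 8.18 TPM in Rep1 and 0.595 in Rep2, on at least 4 and 5 reads and with the uncertainty given above. *CACNG7* was at 1.20 TPM in Rep1 and 0.419 in Rep2, and *CACNG3* at 1.60 TPM in Rep1 and 0.0186 in Rep2, a value that 1 read could give. The 4 receptor-associated genes above 0 were higher in Rep1, as were 24.1% of all genes above 0 in at least 1 library. *CACNG3*, *CACNG4* and *CACNG7* were under 1 TPM in Rep2, and the lower bounds of their reads in Rep1 were 5, 4 and 1. *CACNG6* was at 0.0352 TPM in Rep2 and at 0 in Rep1, and *CACNG1*, the subunit of skeletal muscle, *CACNG5* and *CACNG8* were listed at 0 in both libraries.

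The 26 calcium channel genes summed to 197 TPM in Rep1 and 82.1 in Rep2, a mean of 139 ± 81.0 TPM (SD, n = 2), and their classes contributed differently. The L-type pores summed to 60.3 TPM in Rep1 and 3.83 in Rep2, and the calcium beta subunits to 79.7 and 31.9 TPM. The gamma subunits summed to 17.1 and 2.74 TPM, so these classes were higher in Rep1. The alpha2delta subunits were, as deposited, the class with the smallest SD relative to its mean, at 32.5 ± 7.55 TPM (SD, n = 2), from 27.2 TPM in Rep1 and 37.9 in Rep2. That direction turned with the median of ratios, to 62.1 TPM in Rep1 against 37.9 in Rep2. The T-type pores were the least abundant class in both libraries, with 2.26 TPM in Rep1 and 0.287 in Rep2.

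**Figure D2:**
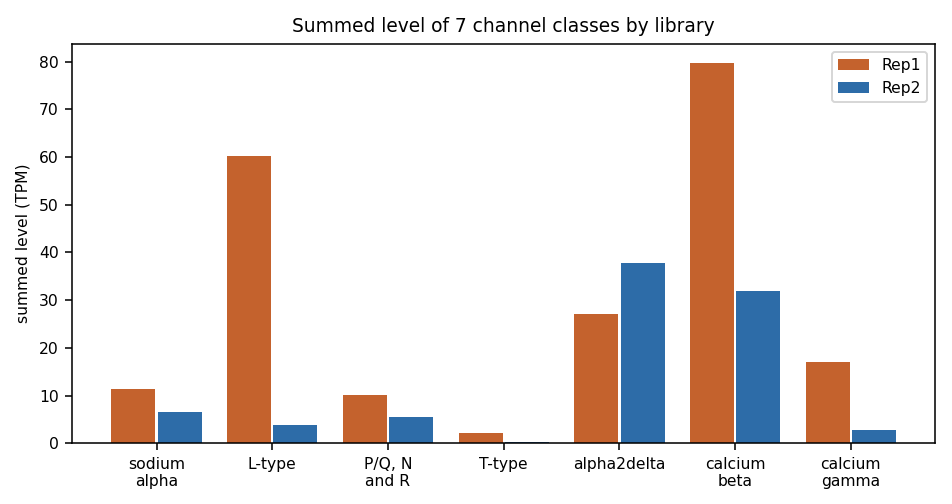
Summed TPM of 7 subunit classes, with a bar for each library and the axis starting at 0. The calcium beta and L-type bars of Rep1 stand at 79.7 and 60.3 TPM, each above the bar of Rep2, and the alpha2delta bar is higher in Rep2 as deposited, at 37.9 TPM, which the median of ratios turns.

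The libraries carry the same condition, so their differences are a measure of spread and not an effect. Of the 35 members above 0 in at least 1 library, 9 were at least 2-fold higher in Rep1 on the log2(TPM + 1) scale, or 25.7%, against 14.8% of all 14693 such genes. A further 6 members (17.1%) were at least 2-fold higher in Rep2, against 51.3% of all genes. The median difference of the members was 0.34 (Rep1 minus Rep2), and that of all such genes was -1.07. Most genes were thus lower in Rep1, whereas the channel genes were split. Of the 23 calcium channel genes above 0, 16 were higher in Rep1, and of the 12 sodium channel genes, 4 were, beside 24.1% of all genes. The largest difference was that of *CACNA1D*, at 3.98 and percentile 98.4 of all genes, followed by *CACNB1* at percentile 95.3. *SCN4B*, at -2.26 and listed at 0 in Rep1, lay at percentile 25.5, so a difference of that size was common among all genes.

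**Figure D3:**
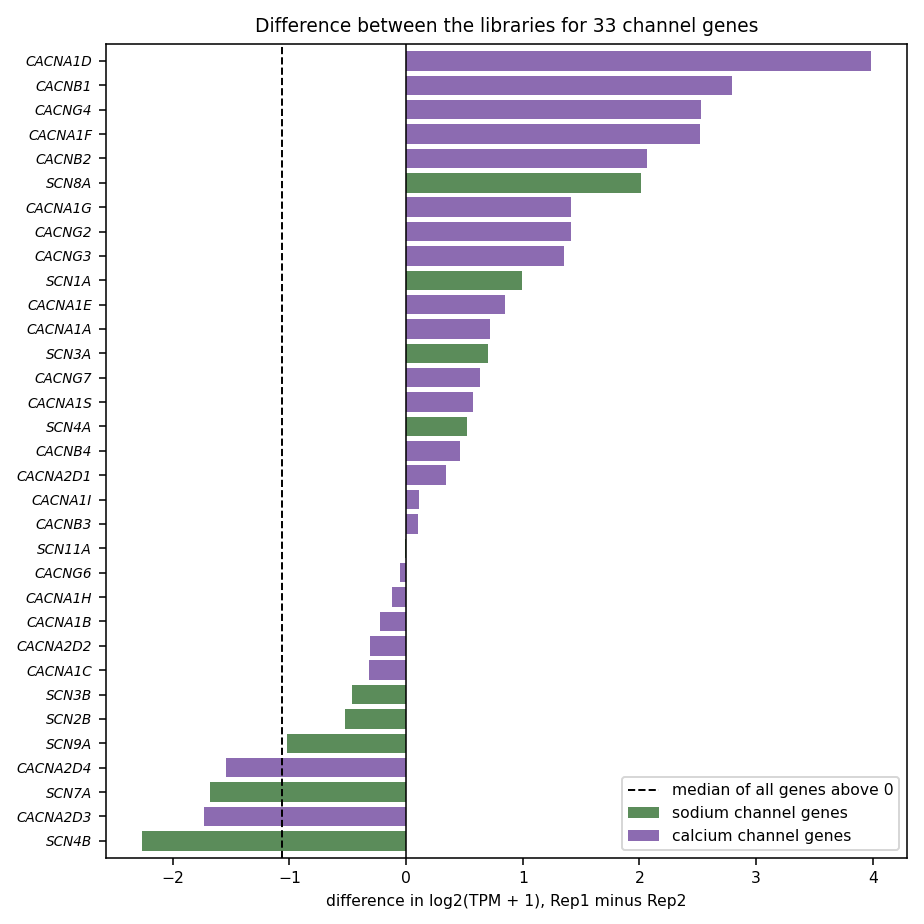
Difference in log2(TPM + 1), Rep1 minus Rep2, for 33 channel genes above 0 in at least 1 library, with sodium and calcium channel genes in different colours. The dashed line is the median of all 14693 genes above 0, at -1.07, and the bars run from -2.26 for *SCN4B* to 3.98 for *CACNA1D*.

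Scaling by the median of ratios, which takes out a general log2 offset of -1.19 between Rep1 and Rep2, left 19 members at least 2-fold higher in Rep1, against 24.4% of all genes, and 4 at least 2-fold higher in Rep2, against 37.0%. The median difference became 1.08 for the members and -0.47 for all such genes. *CACNA1C* was the only member whose direction turned, from -0.32 to 0.057. Markers of other cells moved between the libraries as well. In the photoreceptor list 7 of 10 markers were higher in Rep1, *GNAT1* among them, with *ARR3* at 0 in Rep1 and *CRX* at 0 in Rep2. Lists of glial, vascular and meningeal cells were mostly lower in Rep1, with all 8 smooth muscle and pericyte markers and all 8 fibroblast markers lower there under both scalings. Of all such genes, 75.9% were lower in Rep1 as deposited and 64.8% after the median of ratios. The endothelial list, with 6 and then 5 of 8 markers lower, stood near that share. The part of any of these cell types in the levels of the channel genes was not tested.

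The order of the members by level was loose. Sorted by the mean of log2(TPM + 1), the 35 genes formed 34 neighbouring pairs. No pair differed by more than 0.522 times the SD of a single library. That SD came from how far the libraries lay apart in the 200 genes closest in level, and it includes the general offset between them. Neighbours in a sorted list lie close by construction, so small gaps say little about the order. No neighbouring pair stood in the same order in both libraries, so neighbours were not ranked against each other. Of all 595 pairs of members, 404 (67.9%) stood in the same order in both libraries, 146 in opposite orders, and 45 were tied at 0 in a library.

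Proteins that anchor sodium channels, change their gating or restore the sodium gradient were described from a list of 25 genes, of which 23 were listed in the table. All 23 were above 0 in at least 1 library, with *CNTNAP1* at 0 in Rep1. Of these, 4 were at least 2-fold higher in Rep1 and 5 in Rep2, against 14.8% and 51.3% of all such genes. The median difference was -0.011, which turned to 1.09 after scaling by the median of ratios. Over all such genes it was -1.07 and -0.47. *ANK3*, which encodes the ankyrin that holds sodium channels at nodes, was at 19.0 TPM in Rep1 and 72.0 in Rep2, and its relative *ANK2* was at 101 and 134 TPM. The fibroblast growth factor homologous factors, which bind the tails of the alpha subunits, were above most of the pores themselves. *FGF12* was at 52.8 TPM in Rep1 and 49.8 in Rep2, *FGF13* at 149 and 34.4 TPM, and *FGF14* at 10.6 and 7.26 TPM. The calmodulin gene *CALM2* was at 4838 TPM in Rep1 and 1138 in Rep2. Calmodulin serves many other proteins besides these channels. Of the beta subunits of the sodium pump, *ATP1B1* was at 126 TPM in Rep1 and 70.6 in Rep2 and *ATP1B2* at 288 and 159 TPM.

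For calcium the list held 31 genes that regulate the channels, release calcium from stores or remove it from the cell. All were above 0 in at least 1 library. Of these, 8 were at least 2-fold higher in Rep1 and 16 in Rep2, against 14.8% and 51.3% of all such genes. The median difference was -1.07, or -0.45 after that scaling, close to the -1.07 and -0.47 of all such genes. The small GTPases *GEM* and *RRAD*, which bind beta subunits and inhibit calcium channels, were at 4.71 and 33.4 TPM in Rep1 and at 66.0 and 235 TPM in Rep2. In Rep2 *RRAD* was thus above every channel gene. The store-operated channel *ORAI1* was at 178 TPM in Rep1 and 54.3 in Rep2, and its activators *STIM1* and *STIM2* were at 76.5 and 27.5 TPM in Rep1 and at 21.3 and 97.3 TPM in Rep2. *ITPR2*, a receptor for inositol trisphosphate found in astrocytes, was at 22.2 TPM in Rep1 and 95.2 in Rep2. The plasma membrane pump *ATP2B1* was at 628 TPM in Rep1 and 30.9 in Rep2, on at least 13 and 11 reads. The store pump *ATP2A2* was at 159 and 13.01 TPM, on at least 237 and 334 reads. These read numbers are lower bounds and do not show which gene had more reads. *ATP2B1*, *ATP2A2*, *RYR3* and *SLC8A3* were higher in Rep1, while *ATP2B4* and *RYR2* were higher in Rep2.

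**Figure D4:**
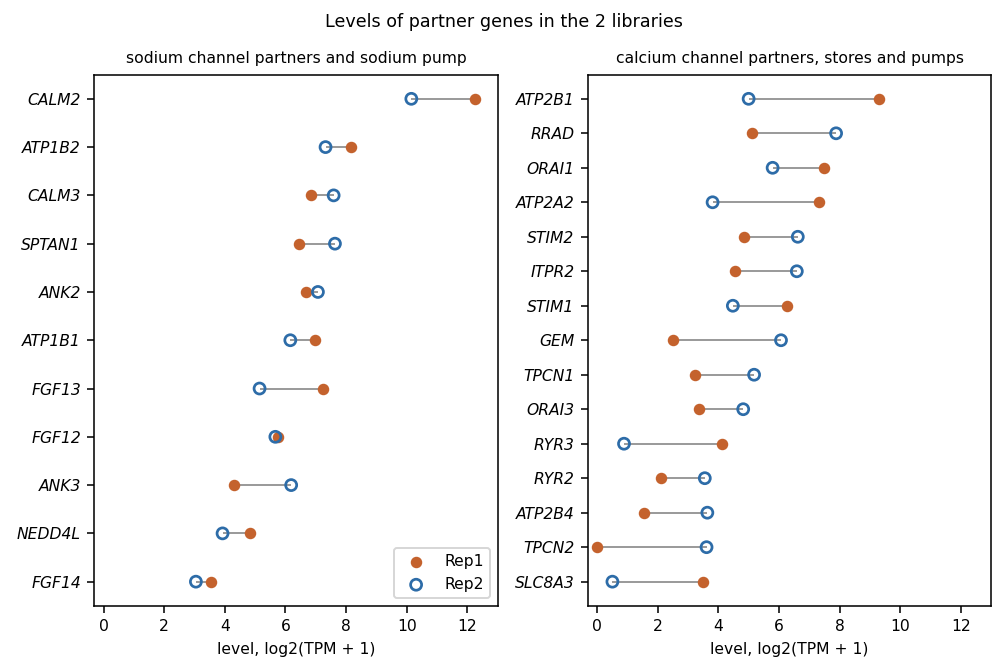
Level on the log2(TPM + 1) axis of partner genes at 10 TPM or more in at least 1 library, sodium channel partners on the left and calcium channel partners on the right, with filled points for Rep1 and open circles for Rep2. *FGF12* stands at 52.8 and 49.8 TPM as deposited, a difference of 0.082 that becomes 1.26 with the median of ratios, whereas *ATP2B1* runs from 628 TPM in Rep1 to 30.9 TPM in Rep2.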

How the data were processed

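The authors demultiplexed the reads, checked them with FastQC 0.11.9, trimmed them with Trim Galore 0.6.6, mapped them to Mmul_10 with STAR 2.7.1a, and assigned them to genes with featureCounts 1.5.3. They deposited TPM values for 16684 genes in the columns Rep1 and Rep2. Nothing ties these columns to the individual sample titles, so they served as replicates of the condition. Nothing in the sources used here gives the gene lengths.

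Values were analysed with Python 3.11.15, numpy 2.4.6 and pandas 2.3.3. Levels were taken as deposited, with means and SDs, except that genes listed at 0 in a library were given by library. Differences were taken as log2(TPM + 1). No test was made, because the study has 1 condition. The smallest read numbers came from the ratios of the values, of which 99.9% were whole within a tolerance of 1e-12, and were tested on simulated data. They are lower bounds, could be computed only for genes above 0 in both libraries, and no interval or detection limit can be set from TPM. RefSeq annotation of Mmul_10, the build the authors used, held all 39 symbols. Members at 1 TPM or more in at least 1 library were named with both values, and partner genes where 10 TPM or more was reached. The members and lists were chosen with earlier results of these data known. A few genes are left out of the text and plots and not reported here.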

Additional observations from a re-analysis of the deposited data

How the results depend on the processing

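No paired analysis was possible because there was a single condition. Scaling by the median of ratios raised the mean summed level to 16.3 TPM for sodium alpha subunits, 14.3 TPM for P/Q, N and R type pores, 2.73 TPM for T-type pores, 49.99 TPM for alpha2delta, 107 TPM for calcium beta and 20.9 TPM for calcium gamma subunits, since it multiplies Rep1 by 2.28. The L-type pores rose from 32.04 to 70.7 TPM, less than their wide SD. Leaving out the 10 most abundant genes moved alpha2delta to 41.2 TPM. With a minimum of 5 TPM, 5 members passed in both libraries, and the single libraries gave 15 to 19 at 1 TPM. The number at least 2-fold higher in Rep1 went from 9 to 15 with a pseudocount of 0.1 and to 19 with the median of ratios, and the number higher in Rep2 from 6 to 10 with that pseudocount. Of 29 alternatives for such summary values, single libraries apart, 18 stayed within the limits set for them, the median difference under all 4 of its own. No called difference of a single gene changed sign. A single library always lies within 1 SD of the mean of 2, so that says nothing of stability, and differences have no value with 1 library. Low members are limited by the lower depth of Rep1.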

Other observations

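Markers of further cell types gave a background for the channels known from them. Of 8 skeletal muscle markers 7 were listed, and 4 were above 0 in Rep1 and 4 in Rep2. Their sums were 16.5 TPM in Rep1 and 30.6 in Rep2, of which *TNNT3* alone gave 28.6 TPM in Rep2, while 3 of the 5 markers above 0 were higher in Rep1 and their median difference was 0.67 on the log2(TPM + 1) scale. The sums and most of the list thus pointed in opposite directions, with the defining myosins *MYH1* and *MYH2* at 0 in both libraries. *CACNG1* was likewise at 0 in both, while *CACNB1* was at 23.5 TPM in Rep1. All 6 Schwann cell markers were lower in Rep1 as deposited and 5 once scaled by the median of ratios, with sums of 86.6 TPM in Rep1 and 1446 in Rep2, of which *PMP22* made up most. *SCN7A*, which Schwann cells also make, was lower in Rep1, as were 75.9% of all genes above 0 in at least 1 library. A link between *SCN7A* and these cells was not tested.

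Of the 10 genes of retinal ganglion cells and neurofilaments, 2 were higher in Rep1 and 6 in Rep2 as deposited, and 5 and 3 after that scaling. *POU4F2* and *SLC17A6* were listed at 0 in both libraries, and *NEFL* was at 3.63 TPM in Rep1 and 3.65 in Rep2. The oligodendrocyte precursor list summed to 72.3 TPM in Rep1 and 405 in Rep2, microglia and macrophages to 224 and 493 TPM, and endothelial cells to 59.0 and 128 TPM. The part of any of these cells in the channel levels was not tested.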
